A study of Lithospermum officinale with 3 samples.

Results

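Leaf and root of *Lithospermum officinale*, a gromwell of the borage family, were compared by RNA sequencing across 38203 assembled unigenes. These were the unigenes with at least 10 expected counts summed over the leaf and the root library, out of 77047 in all, and the choice used the summed count but not the ratio between the tissues. Leaf, stem and root came from untreated 2-year-old plants growing outdoors, with 1 library per tissue, and the stem library enters here only where it is named. Whether the tissues shared a plant, or several plants were pooled, is not given in the sources used here. A unigene is a sequence assembled from the reads without a genome, so pieces or variants of 1 transcript may be listed as separate unigenes. No file links a unigene ID to a gene name. Tissue markers, pathways, sequences and positions were therefore not analysed here, and the labels leaf and root were not checked against marker genes.

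Leaf is the main site of photosynthesis and root takes up water and minerals. The nuclear genes of the photosynthetic machinery are among the most strongly expressed genes of leaves in plants generally. In the related *Lithospermum erythrorhizon*, the root is known for red naphthoquinone pigments of the shikonin group. The series title names genes of specialized metabolism as the object of the study.

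The leaf library held 3490670 expected counts and the root library 10045956. The 100 unigenes most counted over leaf, stem and root took 59.0% of all counts in leaf and 56.7% in root, and they were left out of the scale. Outside them stood 1432056 counts in leaf and 4351427 in root, a 3.04-fold difference in depth. Levels are given as CPM, the usual depth-scaled count, here relative to these remaining counts alone, so 1 count is worth 0.698 CPM in leaf and 0.230 in root. A count of 0 allows a level of up to 2.09 CPM in leaf and 0.689 in root, which is the level of 3 counts. With 1 library per tissue no difference below has a replicate check. Every interval covers counting error only and compares the libraries, not the tissues. Fewer cells of a type and less RNA per cell cannot be told apart in such whole-tissue samples.

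Most unigenes stood at similar levels in leaf and root, and those set far apart beyond counting error lay more often on the leaf side. The ratio of leaf to root was within 2-fold for 54.3% of the 38203 unigenes, with a median log2 ratio of -0.24 (quartiles -1.01 and 0.70). A unigene was called higher in 1 library where the whole exact binomial 95% interval of its ratio lay beyond 4-fold. By this rule 2760 unigenes, 7.22% of those tested, were higher in leaf, and 737 unigenes, 1.93%, were higher in root, together 9.15%. By the point ratio alone, 4534 unigenes (11.9%) were over 4-fold higher in leaf and 4235 (11.1%) in root when a count of 0 is ranked beyond every fold. That ranking takes in 1839 unigenes with no count in leaf and 436 with none in root. With a count of 0 set to its limit of 3, the numbers were 4534 and 2673, and among the 35928 unigenes counted in both libraries they were 4098 and 2396. Beyond 16-fold they were 1748 in leaf and 376 in root at the limit. The median fold of the called unigenes was 30.1 on the leaf side and 26.0 on the root side. The leaf-high set took up 16.7% of all counts in leaf but 1.76% in root. For the root-high set these shares were 6.12% in root and 0.418% in leaf. Root held no count for 436 of the leaf-high unigenes, which are all the tested ones without a root count. Leaf held none for 203 of the root-high ones, and another 1636 without a leaf count were not called. With all counts in 1 library, a leaf call needs 7 counts, under the floor of 10, and a root call needs 47. The 2 numbers of called unigenes are therefore not comparable. Scaling by the deposited TPM moved every log2 ratio by -0.71, and the split was then 1882 higher in leaf and 1672 higher in root. With the 100 most counted unigenes left out of the TPM totals as well, that shift was -0.02.

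**Figure D1:**
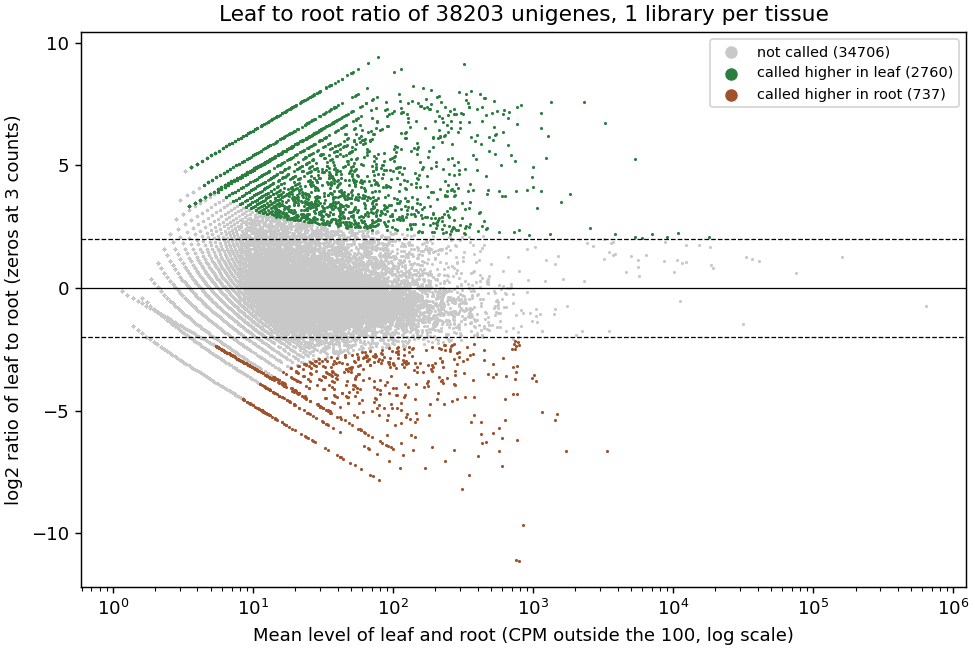
Each point is 1 unigene with its mean level in leaf and root (CPM outside the 100 most counted unigenes, log axis) and its log2 ratio of leaf to root, with a count of 0 set to 3. Dashed lines mark 4-fold; the 2760 called leaf-high unigenes lie above and the 737 root-high ones below, and the called root-high points begin at higher levels than the leaf-high ones.

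The difference in depth made the 2 directions unequally callable. A unigene with all its counts in leaf could be called from 7 counts, a leaf level of 4.89 CPM. A unigene with all its counts in root needed 47 counts, a root level of 10.8 CPM. Of the unigenes tested, 16785 (43.9%) had fewer than 47 summed counts and could not be called root-high, while 1241 of them were called leaf-high. By point ratio, with a count of 0 set to 3, 2566 of these weakly counted unigenes were over 4-fold higher in leaf and 1031 in root. Among the 21418 unigenes with 47 or more counts, 1519 were called leaf-high and 737 root-high, and the point ratios gave 1968 and 1642.

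A floor on summed counts also admits unigenes of the deeper root library at lower levels. At a mean level of at least 4 CPM over leaf and root, every unigene passed the count floor, and the smallest summed count there was 12. Among the 29227 unigenes at this level, 13.4% were over 4-fold higher in leaf by point ratio and 6.84% were over 4-fold higher in root. With a count of 0 set to 3 the latter was 6.76%, and beyond 16-fold the shares were then 5.66% and 1.29%. The interval rule called 2623 of them (8.97%) leaf-high and 737 (2.52%) root-high. Their median log2 ratio was -0.16. Measured from that median instead of from equality, 14.3% lay over 4-fold to the leaf side and 6.13% to the root side. With root thinned to 1432056 counts outside the 100 most counted unigenes, either direction could be called from 17 counts. In these thinned libraries 1913 of 31031 unigenes were called leaf-high and 694 root-high, and with a count of 0 set to 3, 4054 and 2141 passed 4-fold by point ratio. In this single draw, at equal depth outside the 100, leaf-high unigenes also outnumbered root-high ones. They made up 73.4% of the interval calls, against 78.9% before thinning, and 65.4% of the point ratios beyond 4-fold, against 62.9%. The values before thinning include the 100 most counted unigenes and the thinned ones do not, so the sets compared differ.

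**Figure D2:**
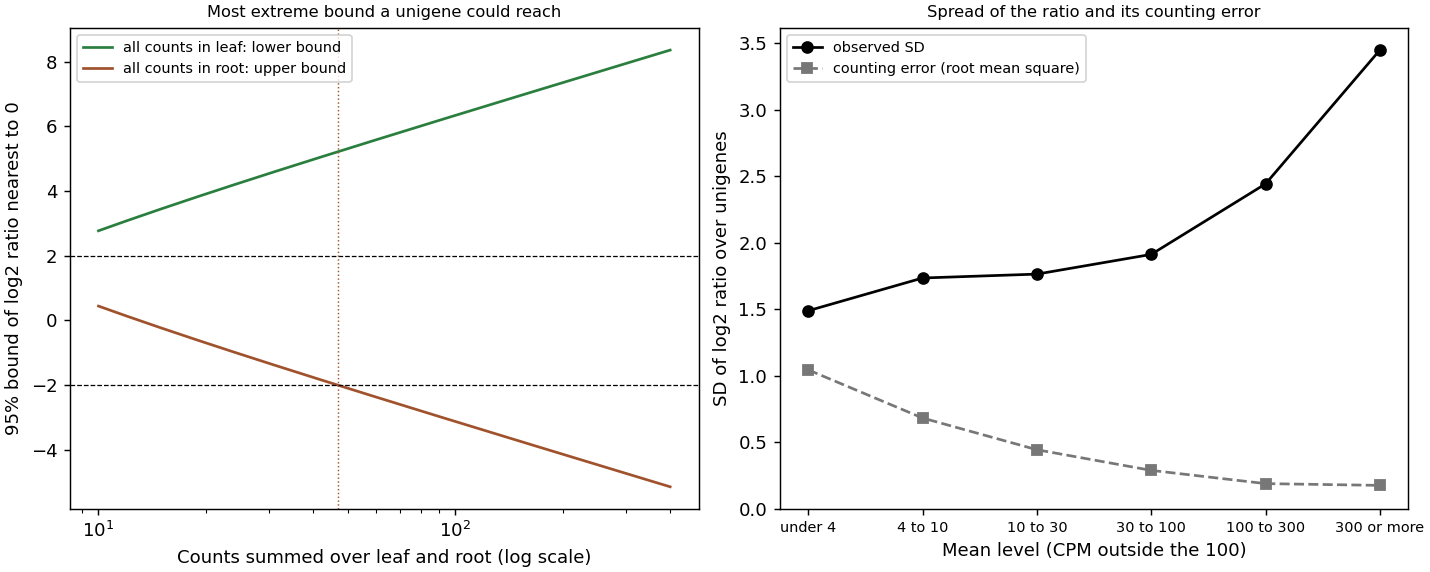
Left, the 95% bound of the log2 ratio nearest to 0 that a unigene could reach if all its counts were in leaf or all in root, against its summed counts (log axis); the root line passes 4-fold (dashed) at 47 counts, marked by the dotted line. Right, the observed SD of the log2 ratio over unigenes in each abundance band and the root mean square of its counting error, which part with rising level, from 1.49 and 1.04 under 4 CPM to 3.45 and 0.17 at 300 or more.

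From 10 CPM upward, bands of higher mean level over leaf and root held a smaller share of unigenes within 2-fold. This mean is arithmetic, so a high level in either tissue alone can place a unigene in a high band. Band and ratio are therefore not independent, and how far this shaped the trend was not tested. Within 2-fold lay 61.9% of the 11478 unigenes at a mean level of 10 to 30 CPM and 60.1% of the 6212 at 30 to 100. This fell to 46.6% of the 1443 unigenes at 100 to 300 and 27.5% of the 389 at 300 or more. In the highest band 28.0% were over 4-fold higher in leaf and 16.2% over 4-fold higher in root. Of these 389, 106 were called leaf-high and 59 root-high, shares of 27.2% and 15.2%. The 100 most counted unigenes all belong to this band, and the 289 others in it gave 31.1% over 4-fold higher in leaf and 14.9% in root.

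Counting error narrowed while the ratios spread. The SD of the log2 ratio over unigenes counted in both libraries rose from 1.73 at 4 to 10 CPM to 1.91 at 30 to 100, 2.44 at 100 to 300 and 3.45 at 300 or more. This leaves out counts of 0, and 1 count is worth 0.698 CPM in leaf and 0.230 in root. The largest fold that can be measured therefore rises with level. Its part in the rising SD was not tested, nor was that of the arithmetic mean that sets the bands. The root mean square of the counting error fell over the same bands from 0.68 to 0.29, 0.19 and 0.17. Counting error made up 49.2% of the variance of the log2 ratio under 4 CPM, 15.4% at 4 to 10 and 0.256% at 300 or more. The remainder holds differences between tissues, plants and library preparations, which cannot be told apart with 1 library per tissue.

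The median log2 ratio was 0.02 at 4 to 10 CPM, -0.16 at 10 to 30, -0.35 at 30 to 100, -0.46 at 100 to 300 and -0.07 at 300 or more. From 10 to 300 CPM the typical unigene thus stood lower in leaf as the level rose. The leaf-side tail beyond 4-fold stayed about as large or grew, at 12.1%, 11.6% and 16.9%. The root-side tail beyond 4-fold was smaller and grew too, at 5.35%, 5.88% and 9.77%. At 100 to 300 CPM the quartiles were -1.13 and 0.83 around the median of -0.46, reaching further to the leaf side. Under 4 CPM the median of the 8976 unigenes was -0.57, or -0.40 with a count of 0 set to 3. At that setting 6.95% were over 4-fold higher in leaf and 7.77% in root. In that band the summed floor admits root-only unigenes at levels where leaf-only ones fail it, and 17.2% had no count in leaf against 0.847% with none in root. After thinning, the median under 4 CPM was 0.

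**Figure D3:**
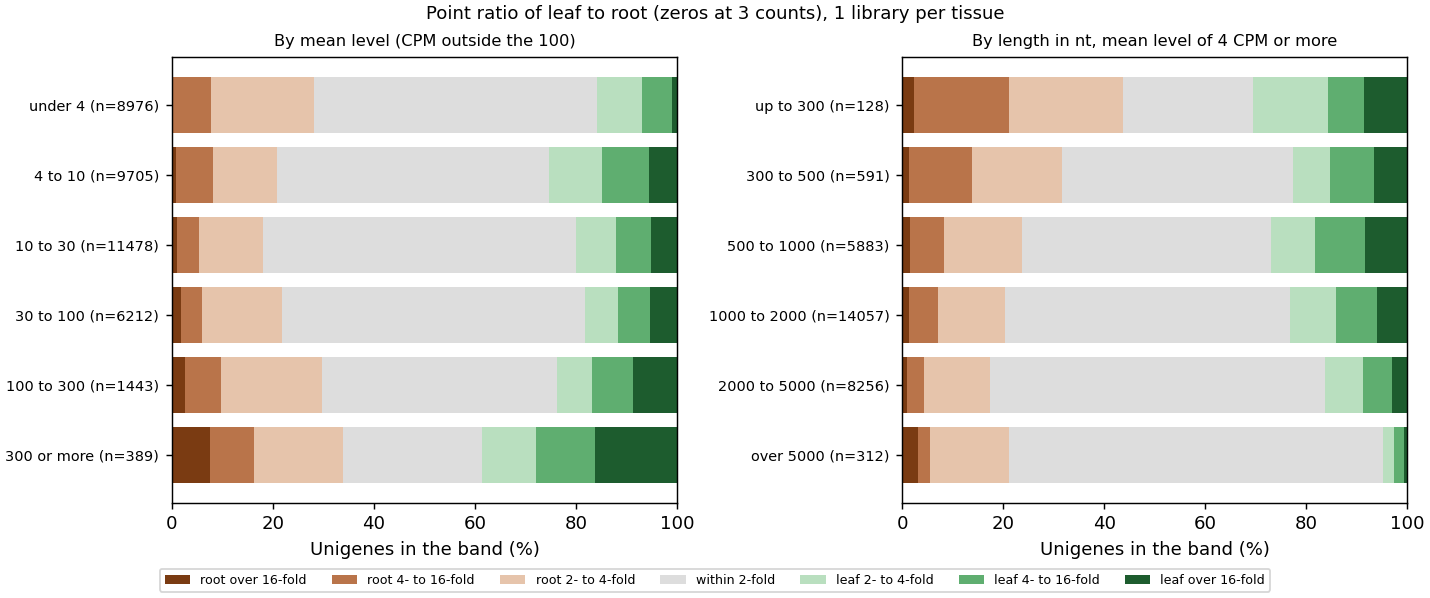
Shares of unigenes (%) by class of the point ratio of leaf to root, with a count of 0 set to 3, by mean level (left, all 38203 unigenes) and by unigene length at a mean level of 4 or more CPM (right, 29227 unigenes). The class within 2-fold narrows to 27.5% at the highest level and widens with length, from 25.8% up to 300 nt to 74.0% over 5000 nt.

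The median short unigene leaned toward root, while the called short unigenes were mostly leaf-high, as were the called ones among all tested. Lengths are classed with the lower end left out, so that 300 to 500 nt begins just over 300 nt. Over all tested unigenes the median log2 ratio was -1.49 for the 404 of up to 300 nt and -0.79 for the 2249 of 300 to 500 nt, with a count of 0 ranked lowest. With a count of 0 set to 3, these medians were -0.62 and -0.40. It was -0.31 at 500 to 1000 nt, -0.13 at 1000 to 2000 nt, -0.20 at 2000 to 5000 nt and -0.35 over 5000 nt. Short unigenes collect few counts, with a median of 17 summed counts up to 300 nt against 131 at 2000 to 5000 nt, so the floor acts on them most. No count in leaf was recorded for 18.8% of the unigenes of up to 300 nt, 21.2% of those of 300 to 500 nt and 0.356% of those of 2000 to 5000 nt. At a mean level of at least 4 CPM the medians of the short classes were -0.50 (128 unigenes of up to 300 nt) and -0.34 (591 of 300 to 500 nt). The first of these includes 13 unigenes at 300 or more CPM, whose median was 1.72. At 4 to 300 CPM the medians were -0.90 (115 unigenes) and -0.34 (582 unigenes). After thinning the medians of the short classes were -0.87 and -0.42, beside -0.16 for all unigenes in the thinned libraries. The interval rule called 19 leaf-high (4.70%) and 5 root-high (1.24%) unigenes up to 300 nt, and 83 (3.69%) and 12 (0.534%) at 300 to 500 nt. Over all tested the shares were 7.22% and 1.93%. Leaf-high unigenes were 79.2% and 87.4% of the calls in the 2 short classes, beside 78.9% over all tested. A root call needed 47 summed counts, above the medians of 17 and 15 in these classes. After thinning the calls were 11 and 2, and 33 and 12, beside 1913 and 694 over all unigenes. Summed counts, which weight the strongly counted unigenes, leaned the other way up to 300 nt, with a log2 ratio of 0.23 outside the 100 most counted.

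Longer unigenes were less spread in their ratio. At 4 or more CPM, the share within 2-fold was 49.4% at 500 to 1000 nt, 56.4% at 1000 to 2000 nt, 66.3% at 2000 to 5000 nt and 74.0% over 5000 nt. The SD beyond counting error was 2.03, 1.84, 1.52 and 1.27 on the log2 scale over the same classes. Unigenes over 4-fold higher in leaf made up 18.3% at 500 to 1000 nt, 8.81% at 2000 to 5000 nt and 2.56% over 5000 nt. Those over 4-fold higher in root made up 8.64%, 4.29% and 5.45%. Over 5000 nt the called unigenes were 6 leaf-high (1.92%) and 13 root-high (4.17%) of 312. This is the reverse of the balance among all tested, where the shares were 7.22% and 1.93%. Of all tested, however, 43.9% had too few counts for a root call. Among the 20716 unigenes with 50 or more summed counts the shares were 7.06% and 3.46%. Beside these, the class over 5000 nt differed mainly in its low leaf-high share. The calls over 5000 nt are few and need not be separate genes, since a root-high run of 8 consecutive ID numbers reaches 5234 nt. The RSEM effective length, which sets how counts become TPM, differed little between the libraries. Its median ratio of root to leaf was 1.02 for the unigenes of up to 300 nt and nearer to 1 in every longer class.

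**Figure D4:**
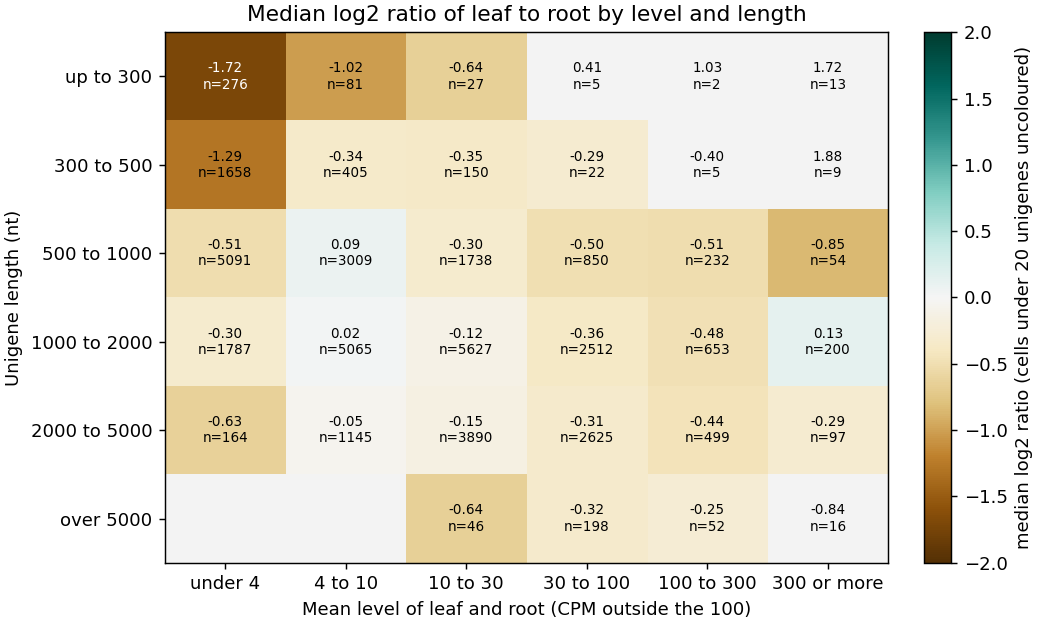
Median log2 ratio of leaf to root in each combination of mean level (CPM outside the 100) and unigene length (nt), with the number of unigenes; brown is toward root, green toward leaf, and cells under 20 unigenes are not coloured. The lowest medians, -1.72 and -1.29, are those of unigenes of up to 300 nt and of 300 to 500 nt under 4 CPM, where a count of 0 in leaf is ranked below all other ratios.

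Level and length were crossed, since short unigenes are also weakly counted. Between 30 and 100 CPM the median log2 ratio was -0.50 at 500 to 1000 nt, -0.36 at 1000 to 2000 nt, -0.31 at 2000 to 5000 nt and -0.32 over 5000 nt. In the same band the share over 4-fold higher in leaf fell with length, to 14.7% at 1000 to 2000 nt, 7.89% at 2000 to 5000 nt and 1.52% over 5000 nt. The share over 4-fold higher in root was 7.52%, 4.04% and 4.55% in these classes. The narrowing of the leaf-side tail with length was therefore present within 1 band of CPM. CPM is not divided by length, so at equal CPM a longer unigene has a lower level per nt. Length was not separated from level per nt. At 300 or more CPM, the 200 unigenes of 1000 to 2000 nt had 33.0% called leaf-high and 13.5% called root-high. The 54 unigenes of 500 to 1000 nt in that band had 20.4% called in each direction.

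Single unigenes show what these classes hold. They were taken outside the 100 most counted as the called unigene with the highest CPM in its higher library, among those over 2000 nt and among those of up to 500 nt in each direction. The choice ranks by level, not by fold. Unigene20289 (3608 nt) was counted 3625 times in leaf, 2017 times in stem and 151 times in root, and its leaf to root ratio was 72.9 (95% interval 62.0 to 86.4). Its level was 277 TPM in leaf, 124 in stem and 6.19 in root, so stem stood between the others. Unigene72214 (368 nt) was counted 182 times in leaf, 548 times in stem and 11 times in root, with a leaf to root ratio of 50.3 (27.4 to 102). Here stem was the highest tissue, with 595 TPM against 245 in leaf and 7.90 in root. At a similar leaf TPM the short unigene had far fewer counts than the long one, and its interval is wider.

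On the root side, Unigene57387 (2703 nt) had 6555 counts in root, 18 in stem and 1 in leaf. Its ratio of root to leaf was 2157, with an interval of 387 to 85220 set by the single leaf count. Unigene14950 (500 nt) was counted 170 times in root, 10 times in stem and once in leaf, and its root to leaf ratio was 55.9 (9.91 to 2223). In both, stem was counted above leaf and far below root, and the upper end of the fold was not measurable at this leaf depth.

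Stem levels, which took no part in the calls, are given beside them. A called unigene has a wide gap between leaf and root, so stem falls between them more readily than in other unigenes. Of the 2760 leaf-high unigenes, stem stood between them in 2212, above both in 544 and below both in 4. The median levels of this set were 32.8 CPM in leaf, 21.0 in stem and 1.15 in root. Of the 737 root-high unigenes, stem stood between in 673, above both in 5 and below both in 59, with medians of 60.2 CPM in root, 7.92 in stem and 2.09 in leaf. Among the 34706 uncalled unigenes stem stood between in 17485.

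Ranks within each library need no scale. Of the 100 unigenes of highest TPM in leaf and the 100 in root, 57 were shared. Of the 300 highest in each, only 107 were shared, which is 35.7%. The shared part was 44.1% of the 1000 highest, 53.1% of the 3000 highest and 57.8% of the 10000 highest. The shared part of lists grows with their length even for unrelated rankings, so these shares describe the lists and set no trend. The weakest leaf entry rested on 58 counts in the list of 300 and on 1 count in the list of 10000, so membership of the longest lists is uncertain. The counts outside the 100 were about equally concentrated, since 50% of them fell in 2972 unigenes in leaf and in 2995 in root.

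Unigenes with neighbouring ID numbers tended to share their ratio. Across 10474 pairs of consecutive numbers, both with 50 or more summed counts and counted in each library, Pearson's r of the log2 ratio was 0.27. It was 0.14 at a distance of 2 and 0.01 at a distance of 10, and within 0.01 of 0 at 100 and 1000. All pairs share the same libraries, and lengths of consecutive unigenes also correlated, at r = 0.35. Of 1951 leaf-high unigenes whose next number was tested, 446 (22.9%) were followed by another leaf-high one, beside 7.22% of all tested. At a distance of 1000 this was 8.05%. Of 529 root-high unigenes, 107 (20.2%) were followed by a root-high one, beside 1.93% of all tested, and 2.42% were at a distance of 1000. The 2760 leaf-high unigenes formed 2314 runs of consecutive numbers and the 737 root-high ones formed 630. The longest root-high run held 8 unigenes of 2028 to 5234 nt, each with 213 to 414 counts in root and 1 to 7 in leaf. Unigene counts therefore need not be counts of separate genes, and near-identical unigenes may divide reads between them.

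**Figure D5:**
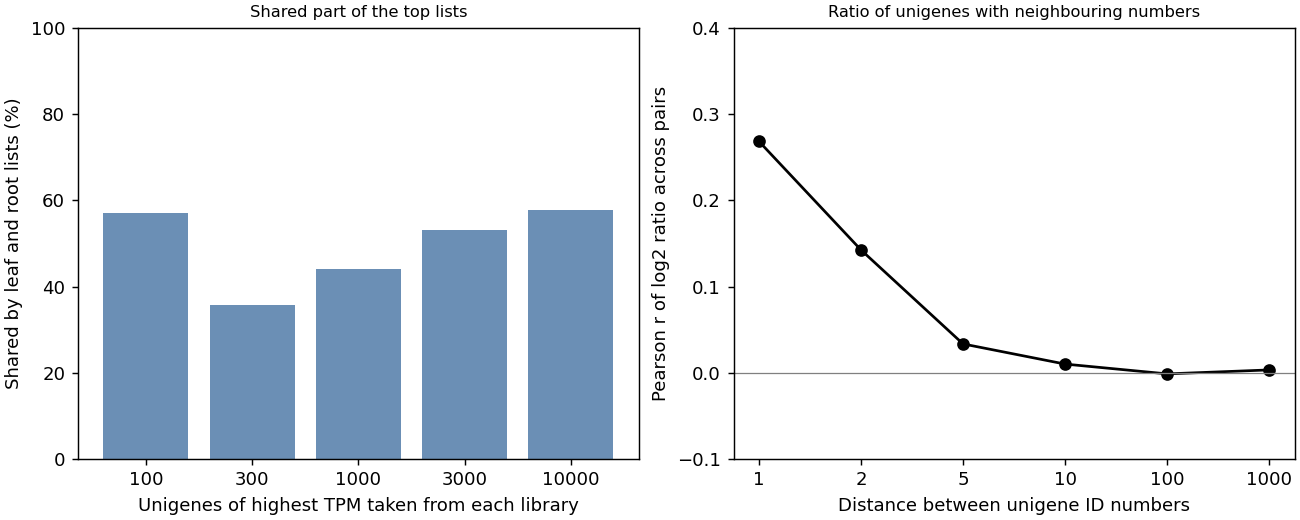
Left, the share (%) of unigenes common to the leaf and the root list of highest TPM, for lists of 100 to 10000; it is lowest, 35.7%, for the 300 highest. Right, Pearson's r of the log2 ratio of leaf to root across pairs of unigenes against the distance between their ID numbers; it falls from 0.27 for consecutive numbers to 0.01 at a distance of 10.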

How the data were processed

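Per the labels' protocols, messenger RNA captured on oligo(dT) went into 1 strand-specific library each of leaf, stem and root. Trimmomatic and RSEM are named without versions in the submitters' processing notes. The assembler, aligner and filters were not given in the sources used here. The deposited tables give for each unigene an RSEM expected count, a TPM and an FPKM; 100% of the deposited expected counts were whole. The authors' FPKM was not used, since ratios came from counts.

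Ratios of counts were scaled by library totals without the 100 unigenes most counted over the 3 libraries. They carry exact conditional binomial (Clopper-Pearson) 95% intervals, and molecular identifiers were not used, so these cover counting error only. Depths were 3490670 (leaf) and 10045956 (root). A point ratio with 0 counts in 1 library was ordered beyond all others. No test was run, as no tissue has replicates. Counting errors of log2 ratios are Poisson values from both counts. Thinning drew root reads without replacement, once, outside the 100. edgeR 4.0.16 (TMM factors) and DESeq2 1.42.0 (size factors) under R 4.3.3 gave alternative scales only. Other steps ran in Python 3.11.15 (numpy 2.4.6, pandas 2.3.3, scipy 1.17.1). The interval code was tested on simulated data, as a check of the calculation only. Named unigenes were the called ones with the highest CPM in the higher library, in each direction, over 2000 nt and up to 500 nt, outside the 100. The members, bands and rules were chosen with earlier results of these data known.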

Additional observations from a re-analysis of the deposited data

How the results depend on the processing

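Absence in leaf is limited by depth, and no replicate could be left out. No paired analysis was possible because neither leaf nor root has a replicate. Alternatives gave 149 values. Of these, 110 remained within a set tolerance, 36 moved further and 3 turned sign. The tolerance was 1.5 times for counts and 0.1 for log2 values. For the leaf share of the called, 78.9%, it was the exact binomial interval of 77.5% to 80.3%. That interval treats called unigenes as independent, which neighbouring ones need not be, so it gives no precision of the share. The 110 include every band value under an alternative scale. Those could not change, since a scale moves all log2 ratios alike, so the tally is no measure of robustness. Except with deposited TPM, scales moved log2 ratios by no more than 0.08 toward root, or 0.16 toward leaf when centred on the median at 4 CPM. The leaf share was 77.2% with TMM, 76.7% with total counts and 82.7% on the centred scale. Deposited TPM gave 1672 root-high unigenes, a leaf share of 53.0% and a median of -0.95. A floor of 50 counts gave 1463 leaf-high unigenes and 67.1%, and a floor of 1 count or of 4 CPM kept all values in range. Intervals beyond 2-fold gave 4549 leaf-high and 2401 root-high (65.5%), beyond 16-fold 782 and 113 (87.4%), and point ratios beyond 4-fold 4534 and 4235 (51.7%), or 4534 and 2673 (62.9%) with a count of 0 set to 3. Thinned root gave a leaf share of 73.4% with intervals, and 4262 against 2289 (65.1%) with point ratios, or 4054 against 2141 (65.4%) with a count of 0 set to 3. Band values are differences from the median of all tested unigenes. In bands per kilobase, 300 or more moved from 0.18 to 0.81. Ratios of summed counts gave 0.13 at 4 to 10 CPM, -0.043 at 100 to 300 and 0.29 at 300 or more. By length they gave 0.24 up to 300 nt, where the main value is -1.25 and the sign turned, -0.38 at 300 to 500 nt, -0.064 at 2000 to 5000 nt and -0.38 over 5000 nt. Thinned root gave 0.16 under 4 CPM, against -0.32, 0.16 at 4 to 10, -0.087 at 300 or more, against 0.18, -0.71 up to 300 nt and -0.25 at 300 to 500 nt. The thinned bands leave out the 100 most counted unigenes. The causes of these moves were not tested. The centred scale, the thinned point ratios, the point ratios with a count of 0 set to 3 and the thinned bands were chosen after seeing the data.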
